A study of Mus musculus with 30 samples.

Results

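The immediate early response genes Fos, Fosb, Jun, Junb, Egr1, Ier2, Ier3, Atf3, Dusp1 and Zfp36 were followed through blood cell differentiation of mouse E14 ESC. These 10 genes were chosen by name from a table of 14685 genes, as well-known members of the class, and one reason for choosing the class was the high level of Junb in Sp3-/- ESC. The differences between Sp3-/- and WT ESC are therefore given below as values without a test. All 10 genes were in the table and all 10 passed the filter on low values, which was a level above 1 FPKM (fragments per kilobase of transcript, scaled to the fragments sequenced) in at least 1 sample. A level covers the whole gene under its symbol.

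RNA sequencing was done on 30 samples from 5 cell populations, each in 3 genotypes with 2 biological replicates. The genotypes were WT, Sp1ΔDBD/ΔDBD, in which both alleles of the transcription factor gene Sp1 lack the DNA-binding domain, and Sp3-/-, in which both alleles of the related factor gene Sp3 are disrupted. All were E14 ESC lines, so each mutant genotype is 1 line and a difference between genotypes cannot be told apart from a difference between lines. The populations were ESC, Flk1+ cells purified on magnetic columns from embryoid bodies, and 3 populations sorted at day 2 of the blast culture that was seeded with Flk1+ cells, namely HE1 (KIT+ CD41- Tie2+ hemogenic endothelium), HE2 (KIT+ CD41+ Tie2+) and progenitors (KIT+ CD41+ Tie2-). The blast culture medium contained serum, VEGF, IL-6 and conditioned medium of D4T cells, and the embryoid body medium contained serum without these additions. Media and ways of harvest thus differed between the populations, and their part in the changes from one population to the next cannot be told apart from differentiation.

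Immediate early genes are transcribed within minutes of a signal, without new protein synthesis, mostly through the MAP kinase pathways, which act on SRF, its ternary complex factors and CREB at their promoters. Fos and Fosb proteins pair with Jun and Junb to form AP-1, a dimer that binds DNA and activates later genes. Dusp1 and Zfp36 belong to the feedback arm, since Dusp1 removes phosphate from MAP kinases and Zfp36 binds AU-rich elements and speeds the decay of short-lived mRNAs. Sp1 and Sp3 bind GC boxes, which are common in promoters.

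The promoter of a member was looked up in RefSeq (GRCm38.p6), and 8 members had an entry that was used here. The sequences shown are those of the 4 members that were lower in a mutant in more than 1 comparison, and of Junb, which was higher in Sp3-/- cells. Each is the 250 bases before the annotated start, 5′ to 3′, and capitals mark every match to the GC box GGGCGG, the CRE TGACGTCA, the AP-1 site TGANTCA, the ETS core CCGGAA, the TATA box TATAAA, the CCAAT box or the CArG box, on either strand. The Fos window was chr12:85473640-85473889 on the plus strand, Fosb chr7:19310046-19310295, Atf3 chr1:191183334-191183583, Dusp1 chr17:26508473-26508722 and Junb chr8:84978749-84978998, all on the minus strand.
Fos promoter: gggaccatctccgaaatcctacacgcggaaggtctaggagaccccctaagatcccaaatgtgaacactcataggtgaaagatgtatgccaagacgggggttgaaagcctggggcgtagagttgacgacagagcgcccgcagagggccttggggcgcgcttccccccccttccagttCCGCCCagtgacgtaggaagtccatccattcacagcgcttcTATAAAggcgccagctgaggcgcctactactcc
Fosb promoter: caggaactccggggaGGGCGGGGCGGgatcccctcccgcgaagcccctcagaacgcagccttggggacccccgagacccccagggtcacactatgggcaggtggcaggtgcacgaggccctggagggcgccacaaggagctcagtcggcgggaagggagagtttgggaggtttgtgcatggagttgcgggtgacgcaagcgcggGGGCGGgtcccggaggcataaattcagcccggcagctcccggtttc
Atf3 promoter: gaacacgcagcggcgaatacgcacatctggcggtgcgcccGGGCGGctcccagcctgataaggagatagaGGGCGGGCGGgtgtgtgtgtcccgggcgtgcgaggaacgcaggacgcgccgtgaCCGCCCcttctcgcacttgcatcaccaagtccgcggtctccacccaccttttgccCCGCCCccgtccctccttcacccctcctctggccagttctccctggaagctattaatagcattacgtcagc
Dusp1 promoter: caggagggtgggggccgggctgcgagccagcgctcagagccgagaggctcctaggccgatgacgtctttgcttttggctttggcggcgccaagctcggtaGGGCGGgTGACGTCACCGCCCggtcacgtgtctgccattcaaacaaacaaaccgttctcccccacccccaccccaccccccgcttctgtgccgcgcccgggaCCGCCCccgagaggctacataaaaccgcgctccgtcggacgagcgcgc
Junb promoter: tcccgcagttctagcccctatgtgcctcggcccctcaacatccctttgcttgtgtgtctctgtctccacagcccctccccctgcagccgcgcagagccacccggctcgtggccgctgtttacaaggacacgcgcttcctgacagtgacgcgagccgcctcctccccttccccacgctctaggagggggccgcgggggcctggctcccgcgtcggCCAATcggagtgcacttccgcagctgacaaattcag

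A GC box was found in 7 of the 8 members in the window from 250 bases before to 50 bases after the start, and in 35.9% of all 32544 promoters of the same length. Atf3 held 5 GC boxes, of which the pair starting 180 and 176 bases before the start overlap, Fosb and Dusp1 held 3 each and Fos held 1. Junb was the member with no GC box in this window. In Dusp1 a CRE starting 143 bases before the start lay between 2 GC boxes and adjoined the second without overlap, and this CRE occurred in 1.80% of all promoters. The CArG box was found in Zfp36 and in 1.64% of all promoters. No member held the AP-1 site, which 7.79% of all promoters held, 1 held the ETS core (15% of all), 2 held the TATA box (13.6%) and 4 held the CCAAT box (37.4%). These matches are letters within a window of fixed size and say nothing of binding. The annotated starts used for Atf3, Dusp1 and Zfp36 lie inside longer gene models of GENCODE M21, in which Atf3 spans chr1:191170296-191218039 and Dusp1 chr17:26505590-26562128. In the same annotation Fos lies at chr12:85473890-85477273, Fosb at chr7:19302696-19310051, Jun at chr4:95049034-95052222, Ier3 at chr17:35821684-35822923 and Zfp36 at chr7:28376784-28380253 (mm10).

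The labels were checked first. Sp3 was between 3.38 and 7.79 FPKM in the 10 Sp3-/- samples and between 25.9 and 58.1 FPKM in the 10 WT samples. Sp1 overlapped between Sp1ΔDBD/ΔDBD (14.8 to 40.5 FPKM) and WT (24.9 to 52.4 FPKM), and a level over the whole gene does not check the loss of one domain. Kdr, which encodes Flk1, was at most 0.322 FPKM in ESC and at least 165 FPKM in Flk1+ cells. Tek, which encodes Tie2, was between 135 and 234 FPKM in HE1 and between 5.95 and 17.5 FPKM in progenitors. Itga2b, which encodes CD41, was between 34.8 and 83.3 FPKM in HE1, although HE1 was sorted as CD41-. The summed level of 5 smooth muscle markers (Acta2, Tagln, Cnn1, Myl9 and Actg2) differed between replicates, being 1742 and 359.7 FPKM in WT HE1, 990.2 and 248.6 FPKM in Sp1ΔDBD/ΔDBD HE1 and 208 and 138.4 FPKM in Sp3-/- HE1. The depth of the samples is unknown.

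In WT cells most members were low in ESC and Flk1+ cells and high in HE1. Between Flk1+ and HE1 cells 9 of the 10 members rose, all except Ier3, where 23.5% of all genes were called as higher in HE1. Called means an adjusted p under 0.05 in limma, which was fitted to all genes and samples. Fos was 1.56 and 1.08 FPKM in WT ESC, 10.75 and 3.88 in Flk1+ cells and 59.2 and 66.0 in HE1. It was 24.9 and 28.2 FPKM in HE2 and 19.3 and 22.4 FPKM in progenitors. The HE1 samples of Fos lay above every other WT sample, and the ESC samples lay below every other. In bulk samples, fewer expressing cells and less RNA per cell cannot be told apart. On the log2(FPKM + 0.1) scale, on which every difference below was calculated, Fos rose by 2.23 ± 0.40 (SE) from ESC to Flk1+ cells and by 3.25 ± 0.40 from Flk1+ cells to HE1 (limma, adjusted p = 0.000104 and 1.50e-06).

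The other genes whose products form AP-1 took the same course with differences in size. Fosb was 0.0116 and 0.0511 FPKM in WT ESC, 4.57 and 0.518 in Flk1+ cells and 15.2 and 14.9 in HE1. Its Flk1+ replicates differed widely, and the rise into HE1 was 3.16 ± 0.59 (limma, adjusted p = 0.000179), or between 1.70 and 4.62 with 1 library left out. Jun rose by 2.43 ± 0.33 into Flk1+ cells and by 2.91 ± 0.33 into HE1, where it was 64.5 and 74.2 FPKM (limma, adjusted p = 5.16e-06 and 6.74e-07). Junb was 9.30 and 4.09 FPKM in WT ESC and 11.7 and 6.55 FPKM in Flk1+ cells, and these groups overlapped. It rose into HE1 by 2.46 ± 0.39, to 47.8 and 49.2 FPKM (limma, adjusted p = 3.07e-05). Atf3, a bZIP factor of the stress response that can pair with Jun proteins, was 1.06 and 0.400 FPKM in ESC, 2.59 and 1.39 in Flk1+ cells and 43.6 and 88.5 in HE1. After HE1 it was 19.3 and 40.6 FPKM in HE2 and 3.67 and 13.1 FPKM in progenitors. The rise of Atf3 into HE1 was 4.96 ± 0.53 (limma, adjusted p = 2.86e-07).

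The remaining members of WT cells differed from this course before HE1. Dusp1 and Zfp36 fell between ESC and Flk1+ cells, Dusp1 from 13.3 and 13.9 FPKM to 6.32 and 3.62 FPKM and Zfp36 from 6.37 and 5.04 FPKM to 2.19 and 2.63 FPKM. These 2 members were called lower where 24.7% of all genes were, and Fos, Fosb, Jun and Atf3, 4 members, were called higher where 27.4% of all genes were. The call of Atf3 at this step (a rise of 1.40 ± 0.53) was lost with a pseudocount of 1 (0.79, limma adjusted p = 0.125) and without ESC replicate 2 or Flk1+ replicate 1, and that of Zfp36 (a difference of -1.21 ± 0.41) without replicate 1 of either group, with limma adjusted p up to 0.330 and 0.107 respectively. Into HE1, Dusp1 rose by 2.84 ± 0.30 to 29.8 and 40.9 FPKM and Zfp36 by 2.87 ± 0.41 to 15.1 and 21.7 FPKM. Egr1, a zinc finger factor, rose by 1.95 ± 0.44 to 17.7 and 23.2 FPKM, and Ier2, a nuclear protein, by 0.95 ± 0.27 to 37.3 and 33.7 FPKM. The call of Ier2 was lost without Flk1+ replicate 2 (limma, adjusted p = 0.0796). Ier3, a regulator of cell survival, was 2.73 and 2.42 FPKM in Flk1+ cells and 5.68 and 4.45 FPKM in HE1, a difference of 0.94 ± 0.81.

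After HE1 few members changed. Between HE1 and HE2, Fos fell by 1.23 on the log2 scale and Dusp1 by 0.96 (limma, adjusted p = 0.0320 and 0.0270), which is 2 of 10 members where 10.2% of all genes were called lower. Between HE2 and progenitors Atf3 alone fell, by 1.99 (limma, adjusted p = 0.0146), where 7.78% of all genes were called lower. These 3 calls each depended on single libraries. Leaving out any one of the 4 WT HE1 and HE2 libraries ended the call of Fos (differences of -1.33 to -1.14, limma adjusted p = 0.0800 to 0.139). The call of Dusp1 was lost without HE1 replicate 2 or HE2 replicate 1 (adjusted p up to 0.318), and that of Atf3 without HE2 replicate 2 or progenitor replicate 1 (adjusted p up to 0.293). Egr1, Zfp36, Ier2 and Ier3 had their highest WT mean in progenitors or HE2, but no step after HE1 was called for them.

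**Figure D1:**
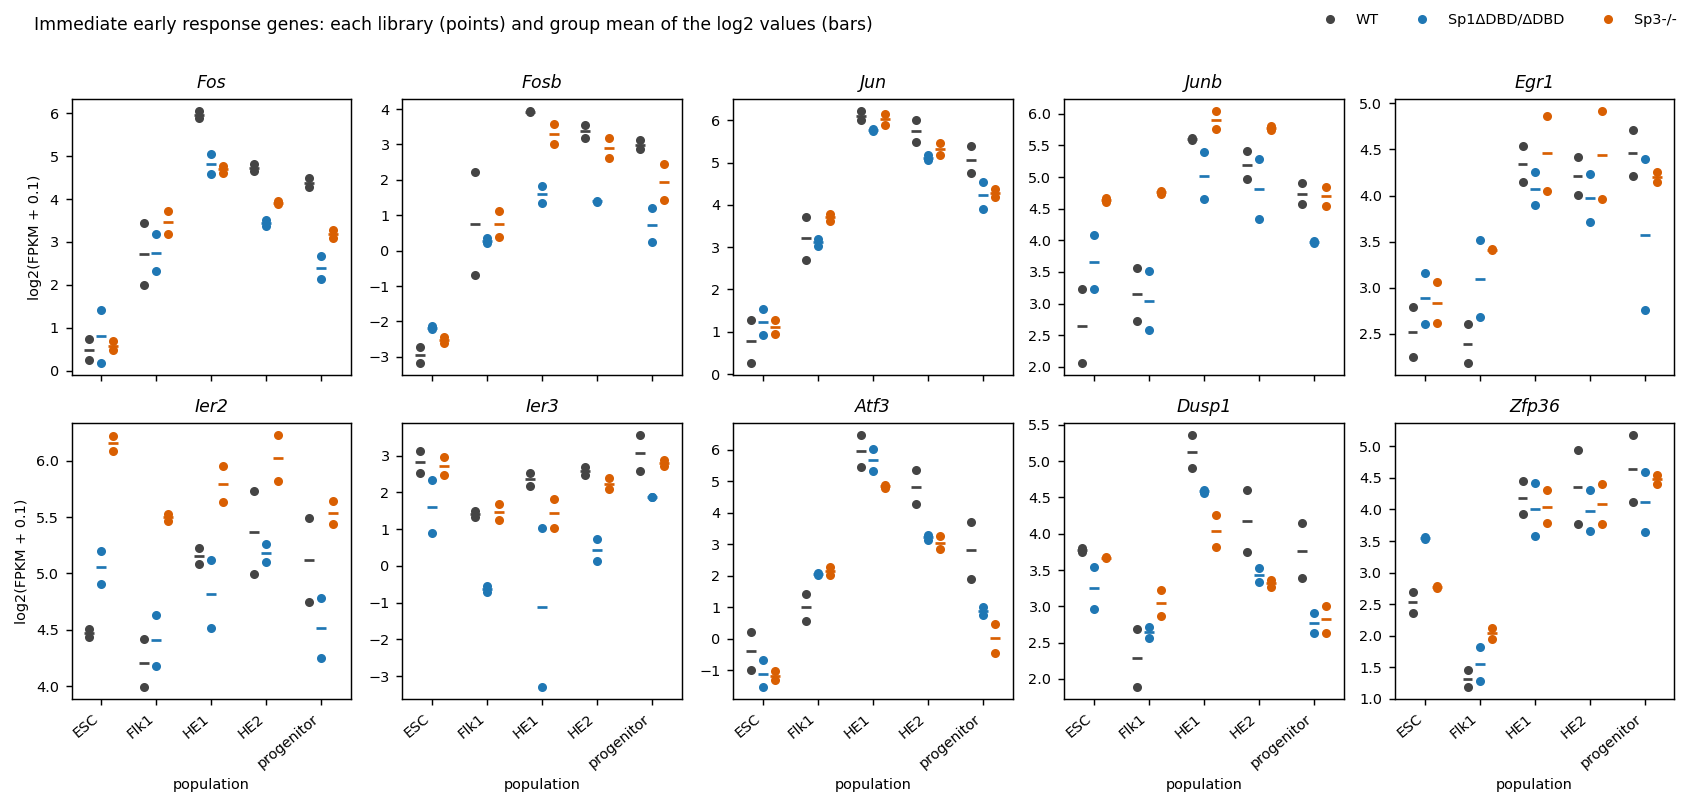
Levels of the 10 members as log2(FPKM + 0.1) (vertical axis, one range per panel) by population (horizontal axis) in WT, Sp1ΔDBD/ΔDBD and Sp3-/- cells. Each point is 1 library and each bar the mean of the 2 log2 values of a group. Fos, Fosb, Jun and Atf3 climb from ESC to HE1, Junb and Ier2 lie higher in Sp3-/- ESC and Flk1+ cells, and 1 Sp1ΔDBD/ΔDBD HE1 library has Ier3 at its lowest value.

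The share of the variation between populations followed from this. On the log2 scale the populations held 95.8% of the variation of Jun over the 30 samples, 87.3% of that of Atf3, 86.2% of Zfp36, 85.6% of Fos and 84.1% of Fosb. Genotype held 56.7% of the variation of Ier2, 41.8% of that of Ier3 and 20.5% of that of Junb, and at most 8.20% of that of any other member. The combination of population and genotype held 15% of the variation of Dusp1 and 12.0% of that of Junb. The shares of Junb include the ESC values that entered the choice of the class, so they are descriptions. Those of Ier2 include the same ESC samples, and those of Ier3 include an Sp1ΔDBD/ΔDBD HE1 library at its lowest value. No share was corrected for GC content or length. Replicates of a group held 21.2% of the variation of Ier3 and 18.1% of that of Egr1. The standard error of a difference between 2 groups was largest for Ier3 (0.81), followed by Fosb (0.59) and Atf3 (0.53).

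In Sp1ΔDBD/ΔDBD cells the AP-1 genes Fos and Fosb were lower than in WT after the Flk1+ stage. In ESC none of the 10 members was called by limma (3 at an unadjusted p under 0.05, one of them Junb, whose WT values entered the choice of the class), where 6.06% of all genes were called, and in Flk1+ cells none was (1 at an unadjusted p under 0.05), where 5.54% were. From HE1 onwards all 10 differences were below 0 in each population. This held under every scaling and correction tried, all of which kept both replicates of each group compared. Some of these signs rest on 1 library. Ier2 in Sp1ΔDBD/ΔDBD HE2 (38.3 and 34.2 FPKM) lay above WT replicate 1 (31.8 FPKM) and below WT replicate 2 (53.1 FPKM). Zfp36 in Sp1ΔDBD/ΔDBD HE1 was 11.8 and 21.4 FPKM, against 15.1 and 21.7 FPKM in WT. After correction for GC content and length, the HE1 differences of Ier2 and Zfp36 were -0.03 and -0.06. The median of the 10 differences was -0.44 in HE1, -0.68 in HE2 and -0.94 in progenitors, beside medians over all genes of 0.02, 0.04 and 0.05. The differences over all genes had Spearman correlations with transcript GC content of -0.283, -0.158 and -0.328, and after correction for GC content and length the medians of the members were -0.24, -0.58 and -0.73. The number of members called was 2 in HE1, 2 in HE2 and 4 in progenitors, all of them lower, where 4.35%, 4.97% and 5.04% of all genes were called lower. Both mutant samples lay below both WT samples for 6, 6 and 7 of the 10 members, and for 19.9%, 18.6% and 17.7% of all genes.

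Fos in Sp1ΔDBD/ΔDBD cells was 23.75 and 33.3 FPKM in HE1, 11.2 and 10.2 FPKM in HE2 and 4.29 and 6.22 FPKM in progenitors. Both mutant samples lay below both WT samples in each of these populations. The difference was -1.15 ± 0.40 in HE1, which did not pass the threshold (limma, adjusted p = 0.0733), -1.30 ± 0.40 in HE2 (adjusted p = 0.0445) and -1.99 ± 0.40 in progenitors (adjusted p = 0.00360). The progenitor call was kept under each alternative tried, with differences of -2.25 to -1.72 when 1 library was left out. The HE2 call was lost with any one of its 4 libraries left out (adjusted p = 0.0860 to 0.206) and after correction for GC content and length (-1.18, adjusted p = 0.0511).

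Fosb had larger differences than Fos. In Sp1ΔDBD/ΔDBD cells it was 2.47 and 3.47 FPKM in HE1, against 15.2 and 14.9 FPKM in WT. In HE2 it was 2.51 and 2.55 FPKM against 9.01 and 11.7 FPKM, and in progenitors 1.09 and 2.23 FPKM against 7.17 and 8.69 FPKM. No Sp1ΔDBD/ΔDBD sample of these populations reached the lowest WT sample. The differences were -2.32 ± 0.59, -1.98 ± 0.59 and -2.27 ± 0.59 (limma, adjusted p = 0.0179, 0.0404 and 0.0209). Leaving out any one library of a group compared ended the HE1 call (adjusted p = 0.0655 to 0.0922) and the HE2 call (adjusted p = 0.0975 to 0.164). The progenitor call ended without WT replicate 1, WT replicate 2 or Sp1ΔDBD/ΔDBD replicate 1 (adjusted p up to 0.171), while the differences stayed between -2.75 and -1.78.

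Among the Jun genes no difference between Sp1ΔDBD/ΔDBD and WT was called. Jun was 14.98 and 23.3 FPKM in Sp1ΔDBD/ΔDBD progenitors and 26.9 and 41.9 FPKM in WT (-0.84 ± 0.33, limma adjusted p = 0.129). Junb was 15.9 and 15.4 FPKM there and 23.7 and 29.9 FPKM in WT (-0.76 ± 0.39, limma adjusted p = 0.255).

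Atf3 and Dusp1 were lower in Sp1ΔDBD/ΔDBD progenitors. Atf3 was 1.90 and 1.58 FPKM there, below both WT samples at 3.67 and 13.1 FPKM, a difference of -1.94 ± 0.53 (limma, adjusted p = 0.0263). Dusp1 was 6.13 and 7.38 FPKM, below both WT samples at 10.3 and 17.7 FPKM, a difference of -1.0 ± 0.30 (limma, adjusted p = 0.0422). Both calls were lost without WT replicate 2, Sp1ΔDBD/ΔDBD replicate 1 or Sp1ΔDBD/ΔDBD replicate 2 (limma, adjusted p up to 0.316 for Atf3 and 0.338 for Dusp1). WT replicate 2 was the higher WT progenitor sample for each, and without it the differences were -1.04 for Atf3 and -0.61 for Dusp1. The Dusp1 call was also lost after correction for GC content and length (-0.81, limma adjusted p = 0.0609).

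Ier3 was the member with lower values in Sp1ΔDBD/ΔDBD cells at every stage. It was 4.93 and 1.77 FPKM in Sp1ΔDBD/ΔDBD ESC against 8.61 and 5.73 FPKM in WT, and 0.584 and 0.515 FPKM in Flk1+ cells against 2.73 and 2.42 FPKM. In HE1 it was 1.96 FPKM in one Sp1ΔDBD/ΔDBD sample and at the lowest value of its library, 0.00251 FPKM, in the other, a value shared by 1038 genes there. In HE2 it was 1.57 and 0.991 FPKM against 5.45 and 6.42 FPKM, and in progenitors 3.59 and 3.59 FPKM against 5.86 and 11.7 FPKM. In each of the 5 populations both mutant samples lay below both WT samples. Over all genes the same held for 22.6% in ESC, 25.3% in Flk1+ cells, 19.9% in HE1, 18.6% in HE2 and 17.7% in progenitors. The HE1 difference of -3.48 ± 0.81 was the one called (limma, adjusted p = 0.00972), and its size rests on the sample at the lowest value. Without that sample it was -1.31 and not called (adjusted p = 0.172), and it was also not called without WT replicate 1. The Flk1+ difference was -2.04 ± 0.81 and the HE2 difference -2.16 ± 0.81 (limma, adjusted p = 0.161 and 0.0990).

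Smooth muscle markers differed widely between replicates in HE1, HE2 and progenitors, and their sums overlapped between WT and Sp1ΔDBD/ΔDBD cells. Their summed level in progenitors was 277 and 87.4 FPKM in WT and 144.8 and 20.1 FPKM in Sp1ΔDBD/ΔDBD cells, and all 5 markers had differences below 0. The sum of 5 fibroblast markers was 55.2 and 16.1 FPKM in WT progenitors and 13.8 and 3.67 FPKM in Sp1ΔDBD/ΔDBD progenitors. The sum of 6 erythroid markers was 102.1 and 43.3 FPKM in WT HE1 and 21.3 and 10.8 FPKM in Sp1ΔDBD/ΔDBD HE1, where all 6 differences were below 0 (median -1.72) and the globin genes Hbb-y and Hba-x were called lower. In Sp1ΔDBD/ΔDBD HE1 2 of 6 macrophage and myeloid markers were called higher. Over all genes 1458 of 14525 were called in that comparison, 632 of them lower. The 2 myeloid markers were Fcgr3, at most 0.154 FPKM in WT HE1, and Mpo, at most 0.949 FPKM there. The part of such cells in the differences of the members was not tested.

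**Figure D2:**
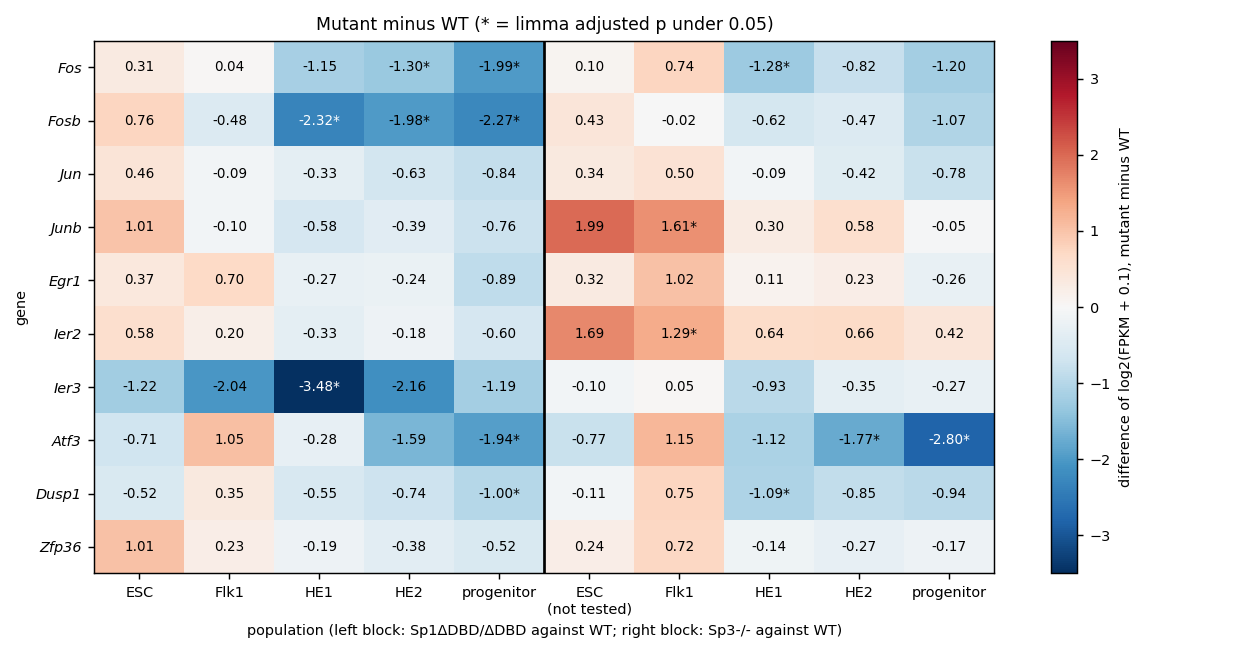
Differences of log2(FPKM + 0.1) between mutant and WT for each member (rows) in each population (columns), with blue for lower and red for higher in the mutant, and an asterisk for limma adjusted p under 0.05. With all libraries kept, the 30 Sp1ΔDBD/ΔDBD differences in HE1, HE2 and progenitors are all below 0. In Sp3-/- cells Junb and Ier2 are higher in ESC and Flk1+ cells while Atf3 is lower from HE1 on.

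In Sp3-/- cells most members lay above WT in Flk1+ cells and most lay below WT from HE1 on. Junb and Ier2 still lay above WT in HE1 and HE2. In ESC, where the class was chosen in part for Junb, Junb was 25.3 and 24.2 FPKM against 9.30 and 4.09 FPKM in WT, and Ier2 was 74.3 and 68.1 FPKM against 22.6 and 21.5 FPKM. The differences were 1.99 for Junb and 1.69 for Ier2, and those of the other 8 members lay between -0.77 (Atf3) and 0.43 (Fosb). In this comparison 11.3% of all genes were called.

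The Flk1+ values were not used for the choice, but these cells come from the same Sp3-/- line, so their Junb level is not independent of it. In Flk1+ cells Junb was 26.6 and 27.3 FPKM in Sp3-/- samples and 11.7 and 6.55 FPKM in WT. Ier2 was 46.1 and 44.1 FPKM against 21.2 and 15.9 FPKM. In both genes the Sp3-/- replicates were close together and above all WT and Sp1ΔDBD/ΔDBD samples. The differences from WT were 1.61 ± 0.39 for Junb (limma, adjusted p = 0.0108) and 1.29 ± 0.27 for Ier2 (adjusted p = 0.00441). They were the 2 members called, both higher, where 6.69% of all genes were called higher. In all, 9 of the 10 differences were above 0 in Flk1+ cells (8 after correction for GC content and length), with a median of 0.75 beside 0 over all genes. The Junb call was lost without WT replicate 2, Sp3-/- replicate 1 or Sp3-/- replicate 2 (differences of 1.20 to 2.03 over all libraries, adjusted p up to 0.183), and that of Ier2 without WT replicate 2 or Sp3-/- replicate 1 (adjusted p up to 0.0864).

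GC content moved with this comparison. Over 11953 genes the difference between Sp3-/- and WT Flk1+ cells had a Spearman correlation of 0.375 with the GC content of the longest transcript, and of 0.504 in ESC. Junb (chr8:84974484-84978718) had a transcript of 62.6% GC and Ier2 (chr8:84661331-84662852) of 60.9%, more than in 98.5% and 96.9% of genes, while the median of the 10 members was 55.0% and that of all genes 49.9%. After each sample was corrected for GC content and length, the Flk1+ differences were 1.0 for Junb and 0.81 for Ier2, and both were still called (limma, adjusted p = 0.0221 and 0.0266). In ESC the corrected differences were 1.03 for Junb and 0.94 for Ier2. The other members changed less under this correction, Atf3 from 1.15 to 1.07 and Fos from 0.74 to 0.67 in Flk1+ cells.

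**Figure D3:**
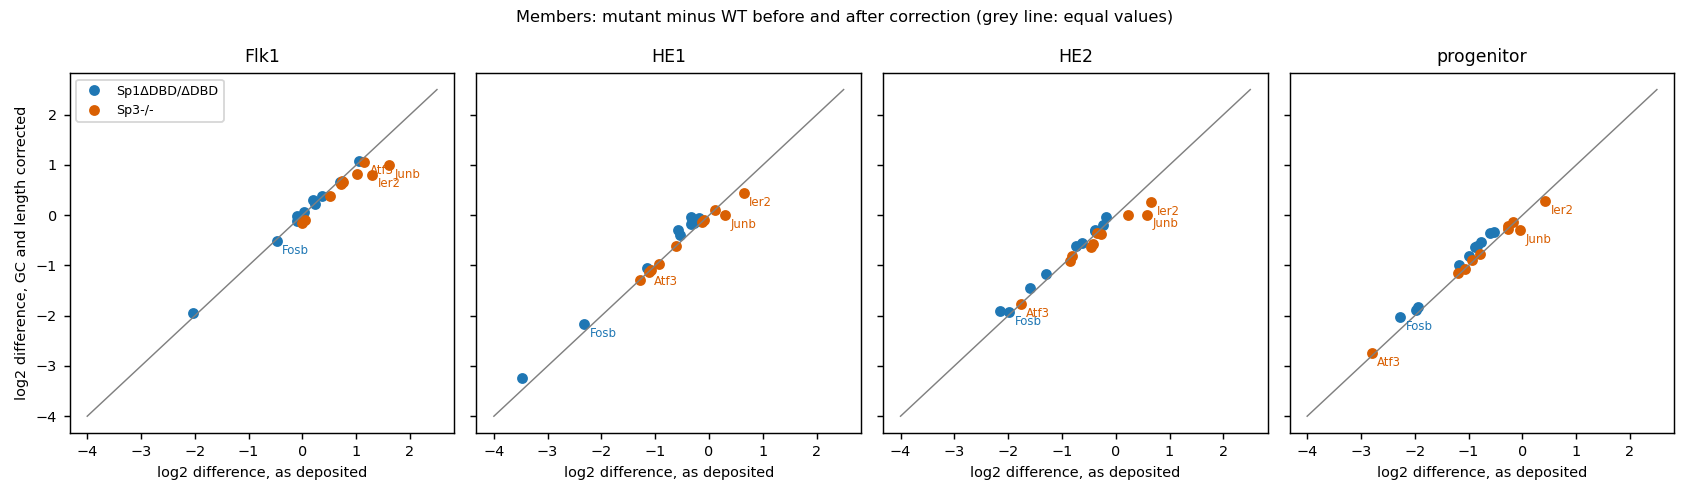
Differences of log2(FPKM + 0.1) between mutant and WT as deposited (horizontal axis) and after correction for GC content and length (vertical axis), with 1 point for each member and mutant in each of 4 populations. Points on the grey line did not change. Junb and Ier2 of Sp3-/- cells fall below the line, from 1.61 to 1.0 and from 1.29 to 0.81 in Flk1+ cells, and Atf3 stays on or near it.

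From HE1 on the members called in Sp3-/- cells were lower than in WT. Of the 10 members 2 were called in HE1, 1 in HE2 and 1 in progenitors, where 4.87%, 6.84% and 4.77% of all genes were called lower. The number of differences below 0 was 7, 7 and 9, with medians of -0.38, -0.38 and -0.53 beside 0.05, 0.03 and 0.04 over all genes. Fos in Sp3-/- HE1 was 27.2 and 24.3 FPKM, against 59.2 and 66.0 FPKM in WT, a difference of -1.28 ± 0.40 (limma, adjusted p = 0.0450). Dusp1 was 19.1 and 14.0 FPKM, against 29.8 and 40.9 FPKM, a difference of -1.09 ± 0.30 (limma, adjusted p = 0.0237). Both mutant samples were below both WT samples for each gene, as for 25.9% of all genes in HE1. Fos was also below WT in HE2 (14.65 and 15.4 FPKM) and in progenitors (8.39 and 9.66 FPKM), with differences of -0.82 and -1.20 that did not pass the threshold (limma, adjusted p = 0.181 and 0.0684). The HE1 call of Fos was lost with any one of the 4 libraries left out (differences of -1.36 to -1.20, adjusted p = 0.127 to 0.215). That of Dusp1 was lost without WT replicate 2 or Sp3-/- replicate 2 (adjusted p up to 0.217).

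Atf3 had the largest difference of the members in Sp3-/- HE2 cells and progenitors. It was 29.7 and 27.4 FPKM in HE1 against 43.6 and 88.5 FPKM in WT, 7.05 and 9.45 FPKM in HE2 against 19.3 and 40.6 FPKM, and 0.637 and 1.28 FPKM in progenitors against 3.67 and 13.1 FPKM. Every Sp3-/- sample lay below both WT samples of its population, as for 25.9%, 27.2% and 23.2% of all genes. The WT replicates themselves differed by a wide margin. The differences were -1.12 ± 0.53 in HE1, -1.77 ± 0.53 in HE2 and -2.80 ± 0.53 in progenitors (limma, adjusted p = 0.186, 0.0322 and 0.00325). The HE2 call was lost without WT replicate 2, Sp3-/- replicate 1 or Sp3-/- replicate 2 (adjusted p up to 0.210), and the progenitor call without WT replicate 2 or Sp3-/- replicate 1 (differences of -3.71 to -1.90 over all libraries, adjusted p up to 0.0556). Junb and Ier2 lay above WT in both Sp3-/- samples of HE1 and HE2, with Ier2 at 61.8 and 49.5 FPKM in HE1 against 37.3 and 33.7 FPKM. They were 2 of the 10 members to do so, as did 35.4% of all genes in HE1 and 31.9% in HE2. Neither Junb nor Ier2 was called there (limma, adjusted p = 0.108 to 0.696). After correction for GC content and length the Junb differences went from 0.30 to 0.01 in HE1 and from 0.58 to 0.01 in HE2, and those of Ier2 from 0.64 to 0.44 and from 0.66 to 0.25.

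Smooth muscle markers were also lower in the Sp3-/- HE1 samples, as given above, with all 5 below 0. The fibroblast sum was 282.5 and 35.7 FPKM in WT HE1 and 27.75 and 19.05 FPKM in Sp3-/- HE1. In progenitors the erythroid sum was 13660 and 4537 FPKM in WT and 1570 and 3508 FPKM in Sp3-/- cells. The summed level of 6 endothelial markers was 1096 and 1762 FPKM in WT HE1 and 1292 and 1231 FPKM in Sp3-/- HE1. In Flk1+ cells, 4 of these 6 were called higher in Sp3-/- and 5 in Sp1ΔDBD/ΔDBD cells. The sum of 5 ESC markers was 94.9 and 97.6 FPKM in Sp3-/- Flk1+ cells and 41.25 and 31.9 FPKM in WT, with a median difference of 1.05 and Sox2 called higher (2.0 ± 0.61, limma adjusted p = 0.0383), and Junb and Ier2 were also high in Sp3-/- ESC. The part of these cells in the differences of the members was not tested.

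The effect of a mutation was compared between stages directly. The mean Sp1ΔDBD/ΔDBD effect over HE1, HE2 and progenitors differed from that in ESC by -1.79 ± 0.46 for Fos and -2.95 ± 0.68 for Fosb (limma, adjusted p = 0.0239 and 0.0132), where 3.22% of all genes were called lower. The same value was -1.59 for Junb, which is a description, since it rests in part on the WT ESC values of Junb that entered the choice of the class. For Sp3-/-, the mean effect over the same populations differed from that in Flk1+ cells by -1.84 ± 0.46 for Fos, -3.05 ± 0.61 for Atf3 and -1.71 ± 0.34 for Dusp1 (limma, adjusted p = 0.0201, 0.00570 and 0.00571), which is 3 of 10 members, where 3.58% of all genes were called lower. Neither of the Sp1ΔDBD/ΔDBD calls remained without ESC Sp1ΔDBD/ΔDBD replicate 1 (-1.17 and -2.99, limma adjusted p = 0.229 and 0.0595), nor any of the Sp3-/- calls without Flk1+ WT replicate 2 (-1.12, -2.62 and -1.32, limma adjusted p = 0.244, 0.0723 and 0.0847), and the signs were kept.

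The 2 mutants were also set against each other without WT. Ier2 was higher in Sp3-/- than in Sp1ΔDBD/ΔDBD cells in all 4 populations tested, by 1.09 ± 0.27 in Flk1+ cells, 0.97 ± 0.27 in HE1, 0.84 ± 0.27 in HE2 and 1.02 ± 0.27 in progenitors (limma, adjusted p = 0.0178, 0.0214, 0.0397 and 0.0191). Junb was higher by 1.71 ± 0.39 in Flk1+ cells (adjusted p = 0.0113). Ier3 was higher by 2.55 ± 0.81 in HE1 (adjusted p = 0.0412), which rests on the Sp1ΔDBD/ΔDBD sample at its lowest value, since without it the difference was 0.38 (adjusted p = 0.746), and with a pseudocount of 1 it was 1.07 (adjusted p = 0.0804). In Flk1+ cells, HE1, HE2 and progenitors 2, 2, 1 and 1 members were called, all higher in Sp3-/- cells, where 3.61%, 6.83%, 7.41% and 5.51% of all genes were called higher. The Ier2 differences shrank to 0.28 to 0.62 after correction for GC content and length, and none of the 4 was then called (limma, adjusted p = 0.0929 to 0.490). Leaving out single libraries also ended each Ier2 call (adjusted p up to 0.254), in all populations without Sp3-/- replicate 1 or 2, and further without Sp1ΔDBD/ΔDBD replicate 2 in Flk1+ cells, HE1 and HE2 and without its replicate 1 in HE2 and progenitors. The Junb call was lost without Sp1ΔDBD/ΔDBD replicate 2 or either Sp3-/- replicate (adjusted p up to 0.220). Fosb, which fell in Sp1ΔDBD/ΔDBD cells, was higher in Sp3-/- HE1 by 1.70 ± 0.59, which did not pass the threshold (adjusted p = 0.0635).

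The members did not form a single pattern. Over the 15 group means of log2 values, Fos had Pearson correlations of 0.95 with Fosb, 0.96 with Jun and 0.93 with Atf3, but of 0.16 with Ier2, and Junb had one of 0.76 with Ier2. Groups of one population share the culture stage and the table was quantile normalised as a whole, so these values are descriptions. Those of Junb, with members and with the non-members below, also include the ESC groups that entered the choice of the class. Among 12016 genes with a group mean above 3 FPKM, the non-member genes most like Fos were Nucb1 (0.98), Maged2 (0.97) and Zfp9 (0.97), and those most like Junb were Ap2s1 (0.96), Dda1 (0.94) and Fis1 (0.94), none of which is an immediate early gene.

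Lists of related genes were counted next. Over all genes, 6.69%, 6.02%, 6.97% and 3.88% were called higher and 5.94%, 4.87%, 6.84% and 4.77% lower in Sp3-/- Flk1+ cells, HE1, HE2 and progenitors. For Sp1ΔDBD/ΔDBD cells the shares were 2.8% to 5.69% higher and 2.62% to 5.04% lower over the 5 populations. Of 43 other immediate early genes tested, 9 were higher and 6 lower in Sp3-/- Flk1+ cells, 1 higher and 10 lower in HE1, 4 higher and 7 lower in HE2, and 1 higher and 6 lower in progenitors. The medians were 0.34, -0.44, -0.22 and -0.29. Ier5l was 14.8 and 15.1 FPKM in Sp3-/- Flk1+ cells against 4.58 and 2.85 FPKM in WT (2.02 ± 0.61, limma adjusted p = 0.0367). Ptgs2, the inducible cyclooxygenase, was 0.442 and 0.639 FPKM in Sp3-/- HE1 against 5.98 and 2.36 FPKM (-2.61 ± 0.67, adjusted p = 0.0180). Bhlhe40, a repressor of the bHLH family, was 0.302 and 0.232 FPKM in Sp3-/- HE2 against 1.43 and 1.56 FPKM (-2.13 ± 0.43, adjusted p = 0.00346). In Sp1ΔDBD/ΔDBD cells, 6 were lower and none higher by limma in progenitors (13 and 1 at an unadjusted p under 0.05, median -0.42), and 0 to 1 higher and 0 to 4 lower in the other populations. The largest called difference in progenitors was that of Ctgf, a secreted matrix-associated protein, at 3.18 and 0.798 FPKM against 11.1 and 4.88 FPKM (-2.12 ± 0.49, adjusted p = 0.0100).

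A list of dual-specificity phosphatases and ERK feedback genes held 12 genes, which are dual-specificity phosphatase, Sprouty and Spred genes. In Sp3-/- Flk1+ cells 5 of them were called higher and none lower. In Sp3-/- HE1, HE2 and progenitors 3, 4 and 3 were lower and none higher. At an unadjusted p under 0.05 limma had 1 lower in Flk1+ cells and 1, 0 and 1 higher in the later populations. Dusp5, which acts on ERK in the nucleus, was 5.61 and 5.38 FPKM in Sp3-/- Flk1+ cells against 1.55 and 0.940 FPKM (2.09 ± 0.46, limma adjusted p = 0.00655). Spry4, an inhibitor of receptor tyrosine kinase signalling, was 17.0 and 13.3 FPKM against 3.76 and 4.21 FPKM (1.89 ± 0.52, adjusted p = 0.0227). Dusp6, the cytoplasmic ERK phosphatase, was 1.67 and 1.40 FPKM in Sp3-/- progenitors against 6.64 and 8.87 FPKM (-2.26 ± 0.34, adjusted p = 0.000534). Dusp8 was 0.209 and 0.228 FPKM in Sp3-/- HE1 against 1.05 and 0.723 FPKM (-1.61 ± 0.43, adjusted p = 0.0209). In each of these 4 genes the mutant and WT samples did not overlap, but they were named as the largest calls of the list. Over all genes both Sp3-/- samples lay above both WT samples for 33.0% in Flk1+ cells. They lay below for 25.9% in HE1 and 23.2% in progenitors. In Sp1ΔDBD/ΔDBD cells there was 1 higher and 4 lower call over all 5 populations together.

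Of 22 kinases and factors that act on immediate early genes, between 1 and 3 were called higher and 0 or 1 lower in each Sp1ΔDBD/ΔDBD comparison, with medians of 0.09 to 0.25. In Sp3-/- Flk1+ cells, HE1, HE2 and progenitors 2, 1, 4 and 0 were higher and 3, 2, 4 and 2 lower, with medians between -0.06 and 0.01. Braf, a kinase upstream of ERK, was 35.4 and 43.2 FPKM in Sp3-/- Flk1+ cells against 63.5 and 82.55 FPKM (-0.89 ± 0.20, limma adjusted p = 0.00773). Rps6ka3, an ERK-activated kinase, was 4.01 and 3.09 FPKM in Sp3-/- HE2 against 9.90 and 6.47 FPKM (-1.16 ± 0.33, adjusted p = 0.0260). Elk3, a ternary complex factor, was 3.01 and 3.54 FPKM in Sp1ΔDBD/ΔDBD ESC against 1.71 and 1.25 FPKM (1.11 ± 0.22, adjusted p = 0.00516). Map2k4, a kinase upstream of JNK, was 10.4 and 12.6 FPKM there against 22.5 and 24.1 FPKM (-1.02 ± 0.22, adjusted p = 0.00812).

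Of the 12 tested AP-1 and bZIP partners, none was called higher by limma in any of these 9 comparisons (3 gene and comparison pairs at an unadjusted p under 0.05). There were 6 lower calls over the 12 genes and 9 comparisons together, to be read beside the shares of all genes given above. Fosl2, a Fos-related partner of Jun, was 4.56 and 2.86 FPKM in Sp3-/- HE1 against 16.4 and 10.9 FPKM (-1.86 ± 0.32, limma adjusted p = 0.00143). Batf3 was listed at the lowest value of both Sp1ΔDBD/ΔDBD progenitor libraries and at 1.19 and 1.67 FPKM in WT. Mafg, a small Maf protein, was 15.7 and 20.5 FPKM in the same cells against 26.8 and 30.9 FPKM (-0.67 ± 0.16, adjusted p = 0.0111).

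Of 9 genes known as AP-1 targets, none was called higher by limma in these comparisons (4 pairs at an unadjusted p under 0.05), and 2, 3 and 1 were lower in Sp3-/- HE1, HE2 and progenitors. Of the same genes 1 was lower in Sp1ΔDBD/ΔDBD HE2 and 2 in Sp1ΔDBD/ΔDBD progenitors, where none of the 9 differences was above 0 (median -1.10). Plaur, the urokinase receptor, was 3.56 and 2.38 FPKM in Sp3-/- HE1 against 17.8 and 10.6 FPKM (-2.20 ± 0.49, adjusted p = 0.00796), and Cd44, a hyaluronan receptor, was 12.2 and 6.07 FPKM against 45.1 and 30.2 FPKM (-2.09 ± 0.54, adjusted p = 0.0185). Timp1, an inhibitor of metalloproteinases, was listed at the lowest value of both Sp1ΔDBD/ΔDBD progenitor libraries and at 1.86 and 0.571 FPKM in WT. Spp1, a secreted phosphoprotein, was 0.341 FPKM and at the lowest value of its library in the Sp3-/- HE2 samples, against 1.89 and 4.73 FPKM in WT. Of 11 heat shock genes, which respond to stress through another factor, none was called by limma in Sp3-/- Flk1+ cells, HE1, HE2 or progenitors (0, 2, 1 and 1 at an unadjusted p under 0.05). In Sp1ΔDBD/ΔDBD cells Hspe1 was lower in ESC (241.3 and 259.6 FPKM against 353.4 and 378.4 FPKM) and Hspb1 in progenitors (2.24 FPKM and the lowest value of its library against 14.3 and 3.19 FPKM).

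**Figure D4:**
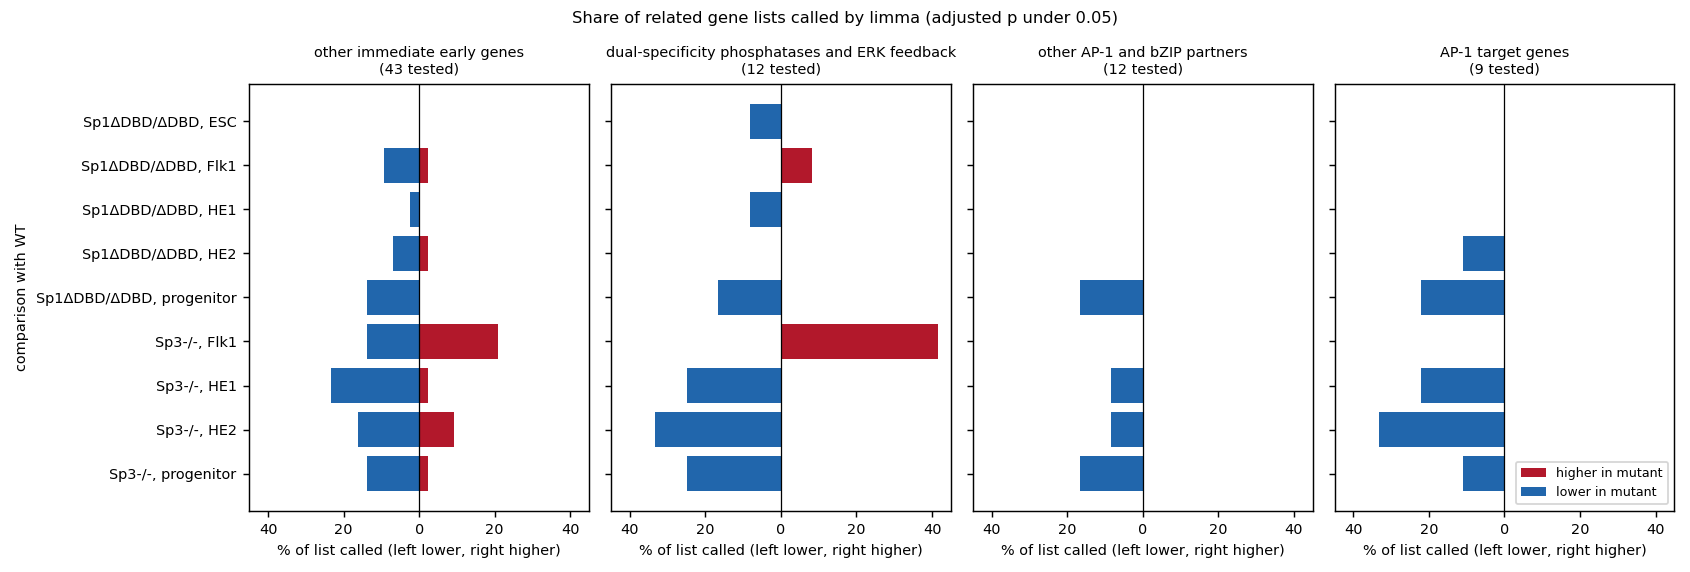
Percent of the tested genes of 4 related lists (panels) that limma called lower (blue bars, to the left) or higher (red bars, to the right) than WT, in each of 9 comparisons (rows). Of 12 dual-specificity phosphatase and ERK feedback genes, 5 were called higher in Sp3-/- Flk1+ cells and 3, 4 and 3 lower in Sp3-/- HE1, HE2 and progenitors.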

How the data were processed

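Total RNA libraries (TruSeq Stranded Total RNA kit with Ribo-Zero) from 2 biological replicates per group were used. Reads were aligned by the authors to mm10 with HISAT2 2.1.0 and assembled into gene levels with StringTie 1.3.3. The deposited values are FPKM per gene, quantile normalised by the authors over all samples. The depth of each sample is therefore unknown, no counting interval can be given, and the spread between samples is the error used.

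Here, log2(FPKM + 0.1) values of the 14525 genes above 1 FPKM in at least 1 of the 30 samples were fitted with limma 3.58.1 in R 4.3.3 (15 group means, empirical Bayes with trend, 15 residual and 3.92 prior degrees of freedom). The two-sided p-values of each of the 20 comparisons received a Benjamini-Hochberg adjustment over all genes tested, and 0.05 was the threshold. Comparisons of both mutants with WT share the WT samples. An exact test of 2 against 2 samples cannot go below 0.333. P-values measure the spread between these samples only. Values of a sample are written replicate 1 first.

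All members were named. For each related list at most 4 genes were named, those called with the largest difference from WT, leaving out Sp3-/- ESC. Markers and related genes were held in lists, and the non-members most like Fos and Junb were the 3 with the highest Pearson correlation over group means. The members and all lists were chosen with earlier results of these data known. GC content and length came from the longest GENCODE M21 transcript of 14562 matched genes and were corrected in each sample with splines of 4 degrees of freedom. The alternatives were a pseudocount of 1, other filters, replicate blocks, this correction, trimmed mean centring, fits of each population alone and leaving out each library.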

Additional observations from a re-analysis of the deposited data

Results flagged for a closer look

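Fos and Fosb were singled out because the Sp1ΔDBD/ΔDBD effect, averaged over HE1, HE2 and progenitors, differed from that in ESC in the test of the difference itself. The values were -1.79 for Fos and -2.95 for Fosb on the log2 scale. Junb (-1.59) passed the same threshold, but its WT ESC values entered the choice of the class, so its value is a description. With 1 of the 16 libraries left out, the difference of Fos ranged from -2.40 to -1.17 and was not called without ESC WT replicate 2 or ESC Sp1ΔDBD/ΔDBD replicate 1 (limma, adjusted p up to 0.229). That of Fosb ranged from -3.17 to -2.74 and was not called without replicate 1 of either ESC group (adjusted p up to 0.0595), and Fosb was at most 0.127 FPKM in these ESC. That of Junb ranged from -2.17 to -1.01 and was -1.03 after correction for GC content and length.

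Fos, Atf3 and Dusp1 were singled out in the same way for Sp3-/- cells against the effect in Flk1+ cells, with values of -1.84, -3.05 and -1.71. Without Flk1+ WT replicate 2 none of the 3 was called, and without Flk1+ Sp3-/- replicate 1 Fos and Dusp1 were not (limma, adjusted p up to 0.244 for Fos, 0.0723 for Atf3 and 0.0847 for Dusp1). Over all 16 libraries the values stayed between -2.57 and -1.12, between -3.47 and -2.62, and between -2.11 and -1.32.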

How the results depend on the processing

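All member differences that were called kept their sign under every alternative run. Of the 14 calls between a mutant and WT, 1 was kept under all of them, and of all 44 calls 13 were. The number of members called changed by more than 1.5 times in the following cases. With a pseudocount of 1 it was 4 for Sp1ΔDBD/ΔDBD HE2, 2 for Sp3-/- progenitors and 3 for Sp3-/- against Sp1ΔDBD/ΔDBD in HE2. Over all 14525 genes the calls in either direction went, in the same order, from 1405 to 1564, 1257 to 1380 and 2305 to 2331. With correction for GC content and length the number of members called was 1 for Sp1ΔDBD/ΔDBD HE2, 2 for Sp3-/- HE2, 2 for Sp3-/- progenitors, and 1, 1, 0 and 0 between the mutants in Flk1+, HE1, HE2 and progenitor cells. Over all genes the calls against WT went, in the same order, from 1405 to 1876, 2006 to 1881 and 1257 to 1674. Between the mutants they went from 1074 to 881, 1971 to 1817, 2305 to 1551 and 1685 to 1408. With trimmed mean centring the number of members called was 2 for Sp3-/- progenitors, where 1265 of all genes were called (1257 in the main fit). With each population fitted alone it was 1 for Sp1ΔDBD/ΔDBD Flk1+, HE1 and progenitor cells, 1, 0, 0 and 0 for Sp3-/- Flk1+, HE1, HE2 and progenitor cells, 0 for both WT steps after HE1, and 1, 1, 0 and 0 between the mutants, and over all genes these fits called between 1 and 2089 genes between a mutant and WT.

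The replicate numbers are not stated to mark a shared culture. With them as a replicate block within each population, 2 members were called in Sp3-/- HE2, 3 in Sp3-/- progenitors and 2 between the mutants in HE2. Over all genes the calls there also rose, from 2006 to 2424, 1257 to 1601 and 2305 to 2634. The block together with the GC correction gave 2, 3, and between the mutants 1, 0 and 0 in Flk1+, HE2 and progenitor cells. Over all genes this setting gave 2339, 2011, and between the mutants 1133, 1869 and 1710 calls. With a replicate block across populations the numbers of members called were 1 for Sp1ΔDBD/ΔDBD ESC, 2 for Sp3-/- HE2, 2 for Sp3-/- progenitors, 2 between the mutants in HE2 and 5 for the Sp1ΔDBD/ΔDBD effect against ESC (3 without a block, Junb counted in both). Over all genes the calls rose as well, in the same order from 880 to 1348, 2006 to 3108, 1257 to 1925, 2305 to 3341 and 1041 to 1771. Same-numbered samples deviated together with correlations over 12016 genes of 0.222 to 0.455 for WT with Sp1ΔDBD/ΔDBD and 0.00474 to 0.194 for WT with Sp3-/- cells, and of 0.41 for WT HE1 with HE2 and 0.427 for WT HE2 with progenitors, so tests that average these populations treat dependent samples as independent. The cause of these changes was not tested, and the fits of single populations also hold fewer samples.

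With 1 library left out, the members called ranged from 0 to 1 in Sp1ΔDBD/ΔDBD ESC, Flk1+ and HE1 cells, 0 to 0 in HE2 and 1 to 3 in progenitors. They ranged from 0 to 3, 0 to 1, 0 to 2 and 0 to 2 in Sp3-/- Flk1+, HE1, HE2 and progenitor cells, from 4 to 6, 8 to 9, 0 to 1 and 0 to 1 over the 4 WT steps, from 0 to 2, 0 to 2, 0 to 1 and 0 to 2 between the mutants, and from 0 to 5 and 0 to 4 for the effects of Sp1ΔDBD/ΔDBD and Sp3-/- between stages. A group with 1 sample was taken to vary like the other groups. Low levels such as Fosb in ESC are limited by the unknown depth.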
